A study of Mus musculus with 24 samples.

Results

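Myl7, Myl4, Sln, Dkk3 and Nr2f2, known as markers of atrial muscle or atrial identity, were followed across 24 two-colour arrays of mouse heart tissue. These 5 genes were chosen by name, carried 9 of the 41174 probes on the array, and all 5 passed the filter on dim probes that left 11436 named genes. Each gene was read from its probe with the highest mean heart signal. Values are log2 ratios of heart RNA (Cy5) over a common reference (Cy3), so that 0 means an equal signal in both channels, unless another scale is named.

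The hearts came from MuRF1 Tg+ and wild-type (WT, MuRF1+/+) mice aged 12 to 16 weeks, which had ischaemia-reperfusion (I/R) or a sham operation. I/R means that a ligature closes the left anterior descending (LAD) coronary artery and is then opened again. Each of the 12 hearts gave a piece from above the ligation site and a piece from below it, or from above and below the potential site in sham hearts. The 8 groups of 3 arrays were therefore Tg+ I/R above, WT I/R above, Tg+ sham above and WT sham above, with the same order of groups below. The reference on every array was RNA pooled from whole C57BL/6 pups of postnatal day 1. The promoter of the transgene and the time from reperfusion to harvest are not given in the sources used here, and neither is which chambers each piece held. In tissue RNA fewer cells of a type and less RNA per cell cannot be told apart.

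The heart signal differed between arrays. The share of Cy5 spots well above background was 15.7% to 37.9% on I/R above arrays, 9.90% to 38.3% on I/R below arrays, 36.1% to 40.7% on sham above arrays and 34.6% to 43.3% on sham below arrays. In all, 5 I/R arrays lay under 25% and are called weak: WT I/R above 1 and 2, WT I/R below 1, and Tg+ I/R below 2 and 3. The background correction draws the ratios of dim spots towards 0, so a gene with a negative ratio can read higher on a weak array. Results on the 5 genes, the wider atrial list and the marker lists that rest on these arrays are given with and without them. For the lists this setting was chosen after seeing the data. Ventricular Myl3 and the heart troponin gene Tnnt2 were well above background on 23 of 23 and 22 of 22 arrays with a value. Trim63, which encodes MuRF1, did not separate the genotype labels, with a median log2 ratio of 2.23 on arrays labelled Tg+ and 2.24 on arrays labelled WT (n = 12 each). Whether its probe reads the transgene was not given, so the genotype labels have no check here.

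Atrial and ventricular muscle use different myosin light chains and regulate calcium differently. Myl7 encodes the regulatory and Myl4 the essential myosin light chain of atrial muscle, and Myl4 is also made in embryonic heart and skeletal muscle. Sln encodes sarcolipin, a small membrane protein that inhibits the calcium pump of the sarcoplasmic reticulum. Dkk3 encodes a secreted protein of the dickkopf family. Nr2f2 encodes COUP-TFII, a nuclear receptor that specifies atrial identity in the developing heart and is also made in venous and lymphatic endothelium.

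The sequences of Myl4 and Myl7 are shown because both light chain genes exceeded every below array on 7 or more of the 12 above arrays, as given next. Myl4 was read by a pair of 60-base probes of the array, whose shared 47 bases are in capitals. They are therefore not independent readings of the transcript.
Myl4 probe used: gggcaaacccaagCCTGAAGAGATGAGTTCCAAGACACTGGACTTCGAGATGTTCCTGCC
Myl4 other probe: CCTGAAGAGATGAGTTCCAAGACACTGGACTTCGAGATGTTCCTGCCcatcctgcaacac

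Promoters, taken from RefSeq on build GRCm38.p6 as 250 bases before to 50 after 1 annotated start site, were at hand for 3 of the 5 genes, Myl7, Myl4 and Nr2f2. Capitals in the promoters of Myl7 (chr11:5898733-5899032, minus strand) and Myl4 (chr11:104550413-104550712, plus strand) mark motif matches on either strand.
Myl7 promoter: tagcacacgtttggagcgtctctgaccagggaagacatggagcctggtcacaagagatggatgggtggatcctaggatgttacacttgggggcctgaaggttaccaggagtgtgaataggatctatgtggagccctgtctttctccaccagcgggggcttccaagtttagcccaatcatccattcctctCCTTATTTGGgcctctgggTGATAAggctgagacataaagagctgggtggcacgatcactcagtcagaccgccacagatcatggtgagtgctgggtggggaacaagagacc
Myl4 promoter: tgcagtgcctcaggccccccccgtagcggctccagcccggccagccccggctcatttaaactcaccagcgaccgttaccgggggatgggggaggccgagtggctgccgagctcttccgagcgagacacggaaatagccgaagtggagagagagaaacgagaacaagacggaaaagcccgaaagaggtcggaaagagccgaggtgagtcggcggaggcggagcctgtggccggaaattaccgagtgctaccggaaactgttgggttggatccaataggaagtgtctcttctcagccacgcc

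The Myl7 window held a CArG box, the motif of serum response factor, from 61 to 52 bases before the start site. It also held a GATA motif from 42 to 37 bases before it, with no overlap between them. The Myl4 window held no match to any of the 7 motifs searched. A CArG box was present in 1.63% of the 32851 promoters of that length and a GATA motif (AGATAA or TGATAA, or either with a final G) in 29.8%. The other motifs searched were the TATA box (TATAAA, 13.6% of promoters), the T-box half-site (GGTGTG, 19% of promoters), the half-site of nuclear receptors such as COUP-TFII (AGGTCA, 16.3%), NKX2-5 (TNAAGTG, 11.5%) and MEF2, by name (3.19%). In the Nr2f2 window a GATA motif was the match. These matches describe the letters of the windows.

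Myl7 separated the above arrays most widely. On Tg+ I/R above arrays 1 to 3 its log2 ratio was 4.62, 5.27 and 5.34, and on WT I/R above arrays 1 to 3 it was 4.90, 0.26 and 6.23. On Tg+ sham above arrays 1 to 3 it was -1.66, 4.28 and -2.35, and on WT sham above arrays 1 to 3 it was -2.09, -1.13 and 2.67. The below arrays were uniformly low, with a lowest, median and highest value of -2.20, -1.08 and -0.41 in I/R hearts and of -2.27, -1.94 and -1.85 in sham hearts (n = 6 each). Its widest gap among the 12 above arrays, 2.42, lay between 0.26 and 2.67 and left 7 arrays on its upper side. These were all 3 Tg+ I/R arrays, WT I/R 1 and 3, Tg+ sham 2 and WT sham 3. The plain spot signals show the same split, with a Cy5 signal of 3417 to 32685 on those 7 arrays and of 50.5 to 131.6 on the other five above arrays. The lowest of the 7, WT sham above 3, was 8.46-fold over the highest below array on the ratio scale, and the highest, WT I/R above 3, was 99.3-fold over it.

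Myl4 showed the same 7 arrays. Its log2 ratio was 1.41, 0.96 and 1.15 on Tg+ I/R above arrays 1 to 3 and 0.65, -1.70 and 2.89 on WT I/R above arrays 1 to 3. It was -2.71, 1.01 and -2.83 on Tg+ sham above arrays 1 to 3 and -2.93, -2.46 and -0.47 on WT sham above arrays 1 to 3. Its widest gap, 1.48, set off WT I/R above 3 alone. All 7 upper values exceeded the highest of the 12 below arrays, -1.21, which was the weak WT I/R below 1, where Myl4 was not well above background. None of the other five above arrays exceeded it. The other Myl4 probe gave 2.87 on WT I/R above 3 and -2.86 on WT sham above 1, close to the probe used.

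Sln ranged most widely after Myl7. It read 0.71, -0.30 and -0.71 on Tg+ I/R above arrays 1 to 3, and 0.16, -2.33 and 2.77 on WT I/R above arrays 1 to 3. It read -4.68, -0.94 and -4.71 on Tg+ sham above arrays 1 to 3, and -4.73, -4.67 and -2.17 on WT sham above arrays 1 to 3. The first 6 of the same 7 arrays passed the highest below array, -1.64 on the weak WT I/R below 1, and WT sham above 3 did not. The widest gap in Sln, 2.34, lay between -4.67 and -2.33 and left 8 arrays on its upper side, the same 7 and WT I/R above 2. Against the highest of the 9 below arrays that were not weak, -3.67, WT sham above 3 passed as well. A further Sln probe was well above background on 1 of 24 arrays, WT I/R above 3, where Sln was highest.

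Dkk3 was dim, and its probe was well above background on 7 of 24 arrays. It read 0.92, 0.32 and 0.25 on Tg+ I/R above arrays 1 to 3, and 0.01, -0.05 and 1.42 on WT I/R above arrays 1 to 3. It read -0.58, 0.69 and -0.64 on Tg+ sham above arrays 1 to 3, and -0.55, -0.48 and -0.04 on WT sham above arrays 1 to 3. Of the 7 arrays where it was well above background, 6 were above arrays: the 3 Tg+ I/R arrays, WT I/R 3, Tg+ sham 2 and WT sham 3. These are the arrays high in Myl7 except the weak WT I/R above 1. The seventh array was WT sham below 2.

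Nr2f2 followed another order. It read -0.26, -0.60 and -0.47 on Tg+ I/R above arrays 1 to 3, and -0.76, -0.31 and 0.00 on WT I/R above arrays 1 to 3. It read -1.13, -0.94 and -1.23 on Tg+ sham above arrays 1 to 3, and -0.89, -0.79 and -0.85 on WT sham above arrays 1 to 3. Tg+ sham 2 and WT sham 3, both high in Myl7, lay within the range of the other sham arrays in Nr2f2. On below arrays the lowest, median and highest values were -1.10, -0.34 and 0.07 in I/R hearts and -1.08, -0.95 and -0.77 in sham hearts. The highest 3 of these were the 3 weak below arrays.

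**Figure D1:**
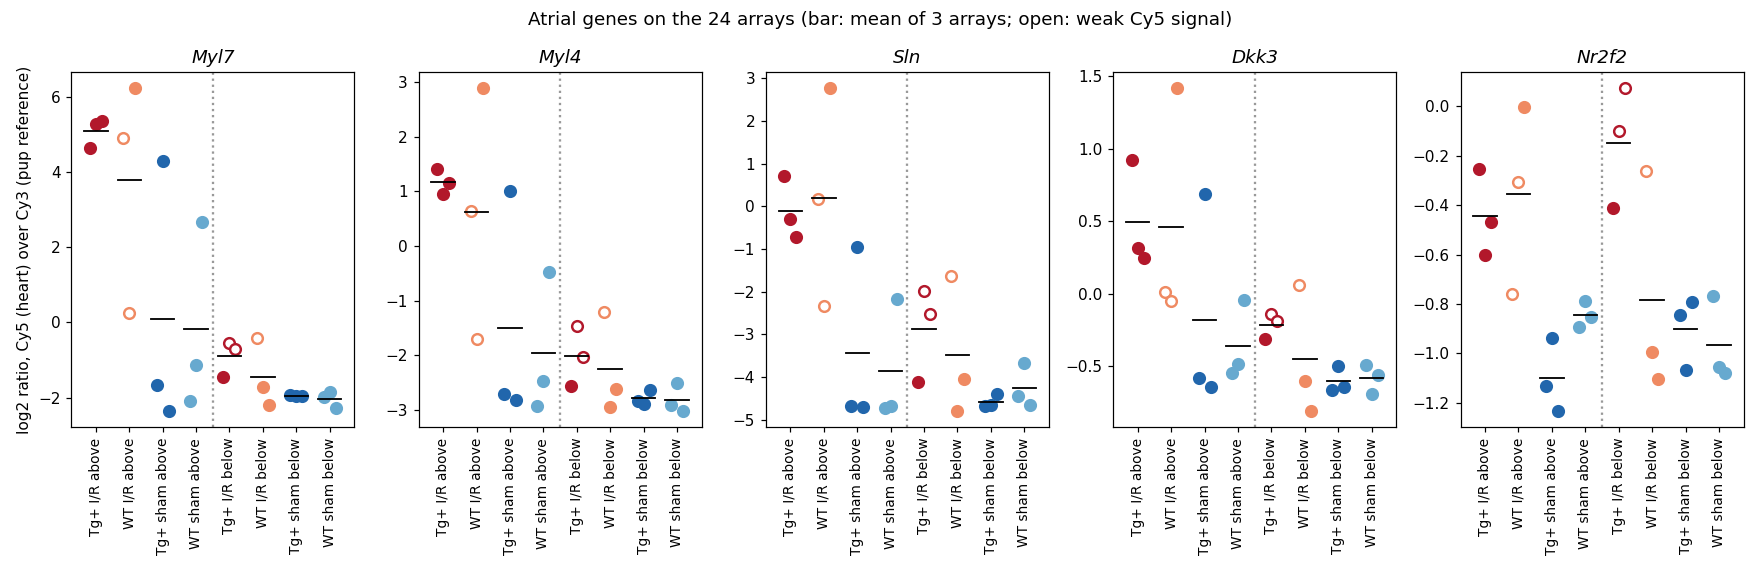
Log2 ratio of heart (Cy5) over pup reference (Cy3) for the 5 genes, 1 panel per gene, on the 24 arrays by group; each point is an array, bars are means of 3 arrays, open points are the 5 arrays with under 25% of Cy5 spots well above background, and vertical scales differ between panels. Myl7 and Myl4 were high on 5 of the 6 I/R above arrays, all but WT I/R 2, and on 1 of 3 arrays in each sham above group. Sln followed them, except that WT sham above 3, at -2.17, lay near WT I/R above 2, at -2.33. Nr2f2 on Tg+ sham above 2 and WT sham above 3 lay among the other sham arrays.

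The number of above arrays that exceeded all 12 below arrays was 8 for Myl7, 7 for Myl4, 6 for Sln, 5 for Dkk3 and 0 for Nr2f2. Over all 11436 genes, 16 reached 7 or more of 12 arrays (0.14%), and Myl7 and Myl4 were among them. Without the weak arrays, which leaves 10 above and 9 below arrays, the counts were 7, 7, 6, 6 and 2 in the same order of genes. In that setting WT sham above 2, at -1.13 in Myl7 and -2.46 in Myl4, passed the below arrays narrowly in both genes, and it did not in Sln or Dkk3. Among the other genes of the 16, named after their values were seen, were Cytl1 on 10 arrays, Mlana on 8, and Adamtsl2, Bambi, Cab39l, Dgcr6, Fgf12, Hacd4, Hnrnph3, Mybphl, Nrtn and Rdx on 7. Mybphl encodes a myosin-binding protein of atrial muscle and the conduction system.

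The weak array WT I/R above 2 stood between the sets. Its Myl7 ratio of 0.26 was 1.59-fold over the highest below array, while its Myl4 and Sln ratios of -1.70 and -2.33 did not exceed that array. Only 15.7% of its Cy5 spots were well above background, and its values resembled those of the 3 weak below arrays in Myl4, Sln and Dkk3. At that signal its level of atrial transcripts could not be placed with either set.

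**Figure D2:**
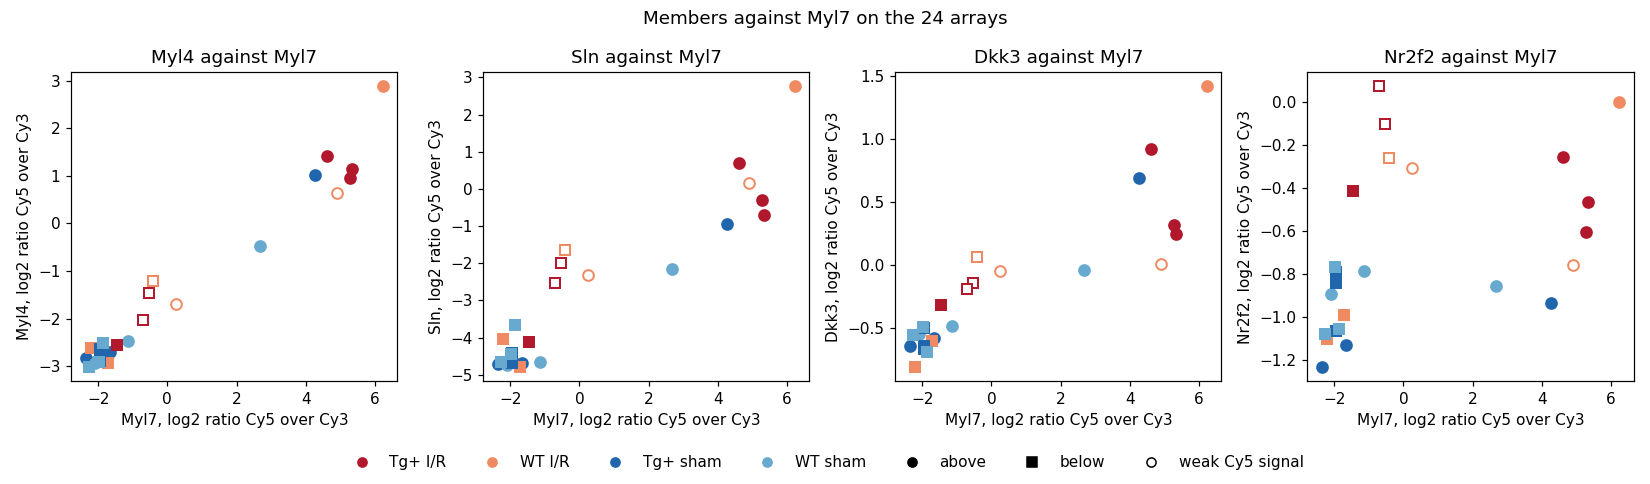
Log2 ratios of Myl4, Sln, Dkk3 and Nr2f2 against that of Myl7 on the 24 arrays; circles are above and squares are below arrays, colours are genotype and surgery, and open symbols are weak arrays. The 7 arrays with Myl7 at 2.67 or more lie above all others in Myl4 and reach down to the level of the weak below arrays in Sln and Dkk3, and in Nr2f2 several below arrays are as high as the above arrays.

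Because the above arrays fell into separate sets in Myl7, pairs of the 5 genes are correlated only within the upper set. Within the 7 upper arrays, which are 1 piece of 7 different hearts, Pearson's r over the 10 pairs of genes ran from 0.57 for Myl7 with Dkk3 to 0.93 for Myl4 with Sln, with a median of 0.83. Spearman's rho ran from 0.43 to 0.89. The 7 arrays share the array platform and reference, differ in depth, and were picked by their Myl7 value, so these are descriptions. Without the 2 arrays farthest from the median of the first gene of a pair, r ran from -0.65 to 0.81. For Myl7 with Myl4 it was 0.87 with all 7 arrays and -0.13 without 2, so that relation rested on WT I/R above 3 and WT sham above 3. Myl4 with Dkk3 kept an r of 0.81. WT I/R above 3 was the highest above array in every one of the 5 genes.

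Above pieces were set against below pieces in the limma fit of group means, which did not pair the 2 pieces of a heart. In I/R hearts the mean log2 difference, above minus below, was 5.61 ± 1.04 (SE) for Myl7 in the limma fit over all genes (adjusted p = 0.029), the above piece being higher in 6 of 6 hearts. In that comparison 0.175% of genes passed the threshold of an adjusted p of 0.05 (20 of 11436). The other 4 genes did not pass. The differences were 3.03 ± 0.68 for Myl4 (adjusted p = 0.072), 3.23 ± 0.80 for Sln (adjusted p = 0.10) and 0.81 ± 0.25 for Dkk3 (adjusted p = 0.21), higher above in 6, 6 and 5 of 6 hearts. An exact sign-flip permutation test over the 6 hearts, two-sided, gave p = 0.0312 for Myl7, Myl4 and Sln alike, the smallest it can give with 6 hearts. Nr2f2 differed by 0.07 ± 0.14 (adjusted p = 0.89) and was higher above in 3 of 6 hearts. Dkk3 was well above background on 4 of the 6 I/R above arrays and on none of the 6 I/R below arrays. The size of its difference is therefore not well measured. Its mean normalised Cy5 signal on the log2 scale was 6.93 above and 6.15 below.

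The size of these differences varied between hearts and with the weak arrays. In Myl7 they were 6.06, 5.82 and 6.06 in Tg+ I/R hearts 1 to 3 and 5.31, 1.97 and 8.43 in WT I/R hearts 1 to 3. With the heart as a replicate block the Myl7 difference kept its size with an adjusted p of 0.051, and 0 genes of the 5 passed. With the slide as a block it was 5.78 ± 1.36 with an adjusted p of 0.30, where 0.035% of all genes passed, and within the 4 slides that held both pieces of I/R hearts it ran from 3.96 to 7.54. After the weak arrays were left out, all 5 genes passed, against 3.32% of all genes: Myl7 at 7.35 ± 1.31 (adjusted p = 0.0033), Myl4 at 4.70 ± 0.76, Sln at 5.60 ± 0.82, Dkk3 at 1.46 ± 0.27 and Nr2f2 at 0.51 ± 0.11 (adjusted p = 0.013). The WT I/R above and Tg+ I/R below groups were then 1 array each, which that fit took to vary like the other groups. Dkk3 passed the filter on dim probes only through Tg+ I/R above, so the filter favoured it as higher above. Its call there supports nothing. Leaving out 1 array at a time, Myl7 kept its call in 3 of 12 fits, those without WT I/R above 2 (adjusted p = 0.0031), WT I/R below 1 or Tg+ I/R below 1. It lost its call without any 1 of the other nine I/R arrays, with a difference of 5.0 to 5.72 and an adjusted p of up to 0.076.

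In sham hearts none of the 5 genes passed, and neither did any other gene (0 of 11435 by limma, with 58 at an unadjusted p under 0.05). The Myl7 difference, above minus below, was 0.28, 6.22 and -0.41 in Tg+ sham hearts 1 to 3 and -0.12, 0.72 and 4.95 in WT sham hearts 1 to 3. The mean was 1.94 ± 1.04, and the 2 hearts with the largest differences were Tg+ sham 2 and WT sham 3. Myl4 differed by 3.90 in the same Tg+ heart and 2.54 in the same WT heart, and by -0.19 to 0.12 in the other four sham hearts. Sln differed by 3.72 in that Tg+ heart and 2.50 in that WT heart, and by -1.0 to 0.00 in the other four.

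**Figure D3:**
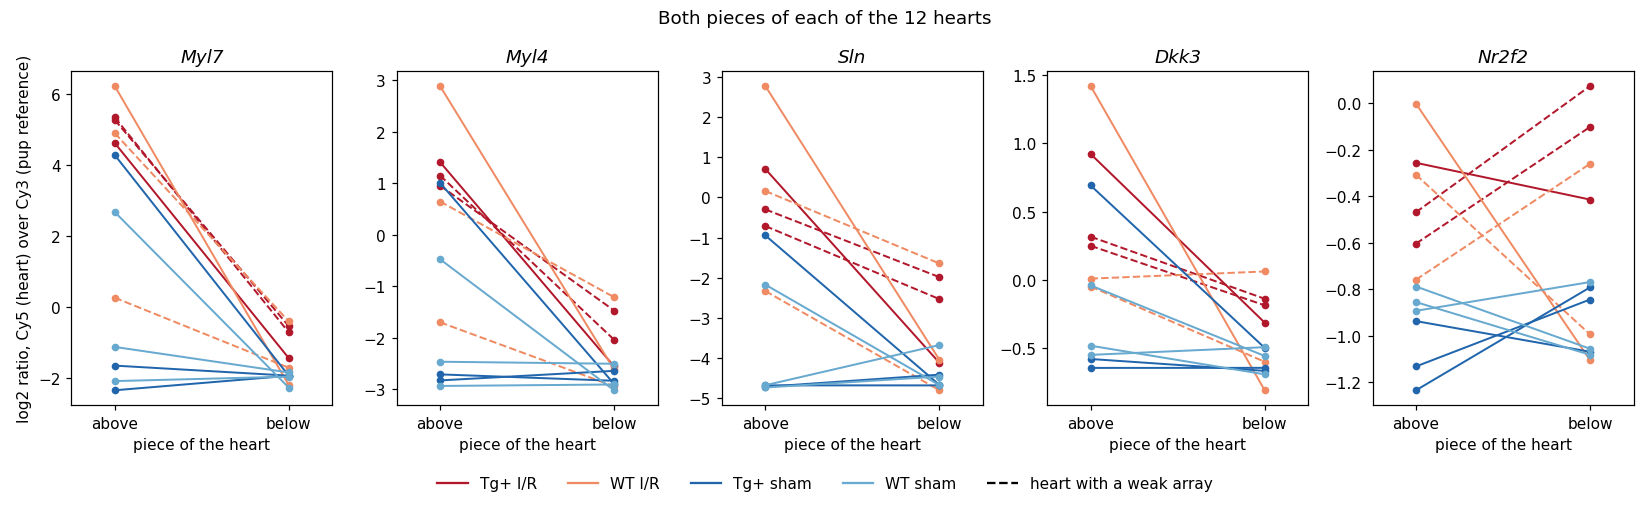
Log2 ratio of the 5 genes in the above (left) and below (right) piece of each of the 12 hearts; each line is a heart, colours are genotype and surgery, and dashed lines are hearts with a weak array. Lines of Myl7, Myl4 and Sln are steep in I/R hearts and in 1 heart of each sham group, and those of Nr2f2 run both ways.

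The interaction of surgery and piece, which tests whether the above-minus-below difference was larger in I/R than in sham hearts, passed for none of the 5 genes nor for any other gene by limma (425 genes at an unadjusted p under 0.05). For Myl7 it was 3.67 ± 1.47 (unadjusted p = 0.022, adjusted p = 1.00). With the weak arrays left out, it passed for Sln at 4.83 ± 1.00 (adjusted p = 0.017) and Nr2f2 at 0.55 ± 0.13 (adjusted p = 0.045), against 2.11% of all genes, and not for Myl7 at 5.41 ± 1.59 (adjusted p = 0.11).

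All 5 genes were higher in above pieces of I/R hearts than in above pieces of sham hearts with both genotypes together, a comparison in which 32.7% of all genes passed and 15.5% passed as higher. The log2 difference, I/R minus sham, was 4.48 ± 1.04 for Myl7 (adjusted p = 0.0034), 2.63 ± 0.68 for Myl4 (0.0067 adjusted) and 3.70 ± 0.80 for Sln (0.0020 adjusted). It was 0.74 ± 0.25 for Dkk3 (adjusted p = 0.027) and 0.57 ± 0.14 for Nr2f2 (adjusted p = 0.0046). The Dkk3 probe passed the filter on dim probes only through Tg+ I/R above, where it was well above background on 3 of 3 arrays, so the filter favoured a difference in that direction and its call supports nothing. The median of the 5 differences was 2.63, beside 0.003 over all genes. Exact permutation tests over the 12 above arrays, two-sided, gave p = 0.0173, 0.0195, 0.00649, 0.0368 and 0.00216 in the order Myl7, Myl4, Sln, Dkk3 and Nr2f2, the last being the smallest possible.

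The share of all genes whose I/R and sham above arrays do not overlap was not counted, so the ranges are only described. Myl7 ran from 0.26 to 6.23 on I/R above arrays and from -2.35 to 4.28 on sham above arrays, so that Tg+ sham 2 and WT sham 3 lay above the lowest I/R array, WT I/R 2. On the probe used, Nr2f2 ran from -0.76 to 0.00 on I/R above arrays and from -1.23 to -0.79 on sham above arrays, without overlap. On a further Nr2f2 probe, well above background on 21 of 24 arrays, the groups did overlap. There WT sham above 1 read -0.22, higher than the weak WT I/R above 1 and 2 at -0.39 and -0.26. The Myl7 difference was 6.99, 1.95 and 7.62 within the 3 slides that held above arrays of both surgeries. With the slide as a block 10.4% of all genes passed, and of the 5 only Myl7 at 4.94 ± 1.45 (adjusted p = 0.048) and Sln at 3.77 ± 1.06 (adjusted p = 0.041) did. Dkk3 lost its call in 6 of the 12 fits that left out 1 array, those without Tg+ I/R above 1, WT I/R above 3, Tg+ sham above 1 or 3, or WT sham above 1 or 2. Its difference in those fits was 0.51 to 0.71, with an adjusted p of 0.055 to 0.078. Without the weak arrays the difference was 5.70 ± 1.10 for Myl7 and 0.75 ± 0.09 for Nr2f2, with WT I/R above 3 alone in its group.

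In below pieces, Nr2f2 alone among the 5 genes was higher in I/R than in sham hearts, by 0.47 ± 0.14 (adjusted p = 0.015), where 36.8% of all genes passed. Its 3 highest below values were on weak arrays, and without the weak arrays the difference was 0.20 ± 0.10 (adjusted p = 0.15), where 21.6% of all genes passed. With the slide as a block Nr2f2 differed by 0.46 ± 0.16 (adjusted p = 0.087, 10.2% of all genes passing), and within the 3 slides that held below arrays of both surgeries by 0.64, 0.69 and -0.02. The differences of the others were 0.81 ± 1.04 for Myl7, 0.66 ± 0.68 for Myl4, 1.24 ± 0.80 for Sln and 0.26 ± 0.25 for Dkk3. After the weak arrays were left out, these were 0.28 ± 1.15, 0.13 ± 0.66, 0.16 ± 0.72 and 0.08 ± 0.24.

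By genotype the above comparison of I/R with sham rested on 3 arrays against 3. In Tg+ hearts Myl7 rose by 4.99 ± 1.47 (adjusted p = 0.029) and Nr2f2 by 0.66 ± 0.20 (adjusted p = 0.031), with 15.3% of all genes past the threshold. Sln, at 3.34 ± 1.13, had an adjusted p of 0.051 there. In WT hearts Sln rose by 4.06 ± 1.13 (adjusted p = 0.023), with 13.3% of all genes past the threshold, and Myl7 differed by 3.98 ± 1.47 (adjusted p = 0.077). With the weak arrays left out, all 5 genes passed in each genotype, against 41.8% of all genes in Tg+ and 12.9% in WT hearts. Dkk3 is among these 5, and it passed the filter on dim probes only through Tg+ I/R above, so its call in Tg+ hearts supports nothing. No Tg+ above array was weak, so the Tg+ differences were the same and only the estimate of the spread moved. The WT I/R above group was then WT I/R above 3 alone, the highest array in all 5 genes, so its calls are not a replicated comparison. With the slide as a block none passed in either genotype, against 3.16% of all genes in Tg+ and 2.26% in WT hearts. These calls rested on single arrays. In Tg+ hearts Myl7 lost its call without Tg+ I/R above 2 or 3 or Tg+ sham above 1 or 3 (difference 3.77 to 4.89), and Nr2f2 lost it without any array but Tg+ sham above 2 (difference 0.56 to 0.74). In WT hearts Sln lost its call without WT I/R above 1 or 3 or WT sham above 1 or 2 (difference 2.77 to 4.08).

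Arrays labelled Tg+ and WT were not told apart by any of the 5 genes. In above pieces of I/R hearts the difference, Tg+ minus WT, was 1.28 ± 1.47 for Myl7, 0.56 ± 0.96 for Myl4, -0.30 ± 1.13 for Sln, 0.04 ± 0.35 for Dkk3 and -0.09 ± 0.20 for Nr2f2, where 0.656% of all genes passed. Without the weak arrays, which leaves WT I/R above 3 alone in its group, these were -1.15 ± 1.80, -1.72 ± 1.04, -2.87 ± 1.13, -0.92 ± 0.37 and -0.44 ± 0.15 in the same order of genes, so that the direction turned for Myl7, Myl4 and Dkk3, and none passed. In above pieces of sham hearts it ran from -0.26 ± 0.20 for Nr2f2 to 0.45 ± 0.96 for Myl4, where 0.035% of all genes passed. The standard errors of Myl7 leave room for differences of several fold in either direction. Within groups the SD of Myl7 was 0.40 in Tg+ I/R above, 3.13 in WT I/R above, 3.65 in Tg+ sham above and 2.52 in WT sham above (n = 3 each). The median SD over all genes was 0.12, 0.17, 0.08 and 0.10 in the same groups.

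A wider list of 16 genes with atrial or atrial-enriched expression gave a mixed picture. Of these, 12 were tested, and Bmp10, Nr2f1 and Kcnj5 were among those that did not pass the filter on dim probes. In above pieces, I/R against sham, 4 rose and 2 fell, against 15.5% of all genes higher and 17.3% lower, with a median of 0.02. Nppa, which encodes atrial natriuretic peptide and is also induced in stressed ventricle, rose by 1.50 ± 0.44 (adjusted p = 0.015). Stard10, a lipid transfer protein gene, rose by 1.07 ± 0.23, Cpne5, a copine gene, by 0.72 ± 0.22, and Gja5, which encodes connexin 40 of atria and conduction system, by 0.59 ± 0.22. The potassium channel genes Kcnj3 and Kcnk3 fell by 0.64 and 0.71 on the log2 scale, and they also fell in below pieces, by 0.65 and 1.03, where 4 of the 12 fell, none rose and 19.7% of all genes fell. In above against below pieces of I/R hearts none of the 12 passed, with a median difference of 0.50. After the weak arrays were left out, 6 rose and 1, Kcnk3, fell in above pieces of I/R against sham hearts (18.3% of all genes higher and 18.2% lower), none rose and 3 fell in below pieces (11.5% of all genes lower), and 4 were higher above than below in I/R hearts (2.88% of all genes higher). The 4 were Mybphl, Stard10, Gja5 and Pam, which encodes an enzyme that amidates peptides.

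Mybphl was high on the same above arrays as Myl7 and Myl4. Its log2 ratio was 1.80, 1.29 and 0.51 on Tg+ I/R above arrays 1 to 3, and 1.28, 0.06 and 3.25 on WT I/R above arrays 1 to 3. It was -0.18, 2.04 and -0.17 on Tg+ sham above arrays 1 to 3, and -0.01, 0.03 and 1.05 on WT sham above arrays 1 to 3. The other five above arrays lay between -0.18 and 0.06. Neither I/R against sham above (0.91 ± 0.42, adjusted p = 0.10) nor above against below in I/R hearts (1.40 ± 0.42, adjusted p = 0.20) passed. With the weak arrays left out, these differences were 1.77 ± 0.39 and 2.28 ± 0.46, and WT I/R above 3 was then alone in its group. The Mybphl probe was well above background on 7 of 24 arrays. Which group carried it past the filter on dim probes is not given here. If that was a group where Mybphl was high, the filter favoured these differences, so they are only described.

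Nppa followed those arrays in part. It read 3.97, 4.74 and 4.73 on Tg+ I/R above arrays 1 to 3, and 4.04, 1.43 and 4.65 on WT I/R above arrays 1 to 3. It read 1.85, 3.16 and 2.19 on Tg+ sham above arrays 1 to 3, and 2.97, 1.96 and 2.40 on WT sham above arrays 1 to 3. The 6 highest values lay on 6 of the 7 arrays high in Myl7, and WT sham 3 lay within the other sham arrays. On Tg+ I/R below arrays 1 to 3 it read 3.65, 4.51 and 4.49, which overlaps the Tg+ I/R above arrays, while Myl7 was low there.

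**Figure D4:**
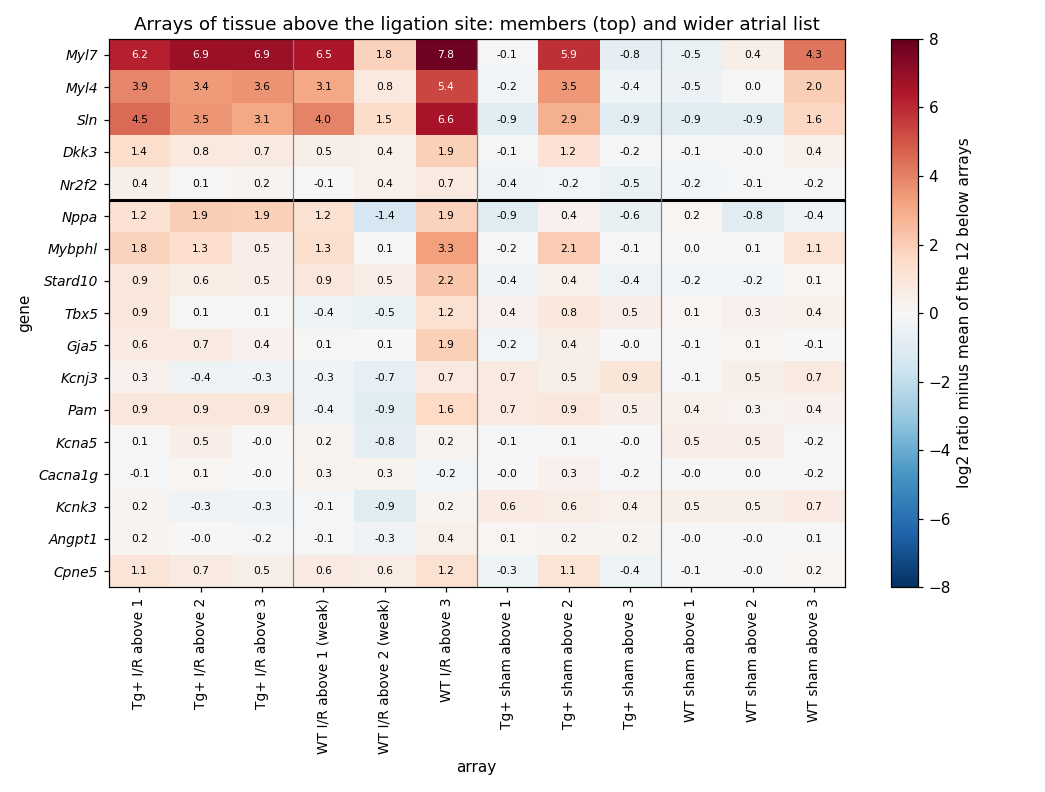
Log2 ratio minus the mean of the 12 below arrays for the 5 genes (top rows) and the 12 tested genes of the wider atrial list on the 12 above arrays; red is higher and blue lower than the below arrays. Myl7, Myl4 and Sln reach 7.80, 5.36 and 6.58 on WT I/R above 3, and Mybphl is raised on the same 7 arrays as Myl7.

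By Pearson's r over the 12 above arrays with the mean of the 5 genes' centred ratios, the 10 most similar other genes were Myl9, Lrrn2, Cnn1, Tagln, Tmem163, Fcgr1, Mybpc2, Hamp, Cpne5 and Kazald1, with r from 0.91 to 0.92. Myl9, Cnn1 and Tagln encode contractile proteins of smooth muscle, and Fcgr1 an immunoglobulin receptor of macrophages. The lowest were Cyc1, which encodes cytochrome c1 of the respiratory chain, Slc36a2 and Trim24, with r of -0.89. The arrays share platform and reference, and the r follows both the 7 upper arrays and the split between surgeries. Myl9 read -0.89, -1.15 and -0.52 on Tg+ I/R above arrays 1 to 3, and -2.06, -2.01 and -0.41 on WT I/R above arrays 1 to 3. It read -3.15, -1.35 and -3.18 on Tg+ sham above arrays 1 to 3, and -3.05, -2.61 and -2.55 on WT sham above arrays 1 to 3, so that WT sham 3, high in Myl7, was not high in Myl9.

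Markers of other cell types were read as the mean of each list's tested genes relative to the 12 below arrays. Smooth muscle markers (6 tested) ran from -0.06 to 0.45 on I/R above arrays and from -0.29 to 0.60 on sham above arrays, the highest being Tg+ sham 2, which was high in Myl7. WT sham 3, also high in Myl7, was at 0.04, and in above pieces of I/R against sham hearts 2 of the 6 rose and 2 fell, with and without the weak arrays (15.5% of all genes rose and 17.3% fell with them). Ventricular markers (9 tested) ran from -0.20 to 0.01 on I/R above arrays and from 0.21 to 0.46 on sham above arrays, and 4 of them fell with I/R in above pieces and 4 in below pieces, against 17.3% and 19.7% of all genes. Without the weak arrays 4 fell and 1 rose in above pieces and 3 fell in below pieces. Ventricular markers on Tg+ sham 2 and WT sham 3, at 0.31 and 0.22, lay within the other sham arrays. Of the 9 sinoatrial node genes 3 were tested, and Shox2, Isl1, Vsnl1 and Cacna1d were well above background on none of the 24 arrays.

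Fibroblast and matrix markers (10 tested) ran from 0.17 to 0.50 on I/R above arrays and from -0.39 to -0.11 on sham above arrays. Epicardial and mesothelial markers (5 tested of 11) ran from 0.17 to 1.10 on I/R above arrays and from -0.46 to -0.27 on sham above arrays. These lists moved with surgery beside the 5 genes, and their part in the I/R differences was not tested. In above pieces of I/R against sham hearts 5 of the 10 fibroblast markers and 4 of the 5 epicardial markers rose and none fell, against 15.5% of all genes higher. After the weak arrays were left out, 7 of the 10 and 5 of the 5 rose, against 18.3% of all genes. On Tg+ sham 2 and WT sham 3 the epicardial markers stayed below 0, as on the other sham above arrays. Venous and lymphatic endothelial markers (4 tested of 8), which share cells with Nr2f2, ran from -0.10 to 0.54 on I/R above arrays and from -0.15 to 0.21 on sham above arrays, with 2 higher and 2 lower, with and without the weak arrays. All 8 thymus and lymphocyte markers were well above background on none of the 24 arrays. Above minus below in I/R hearts without the weak arrays, the median difference was 0.75 for epicardial and 0.54 for fibroblast markers. It was 0.40 for venous and lymphatic markers and 0.58 for sinoatrial node genes, beside 0.83 for the wider atrial list. Ventricular and skeletal muscle markers were at -0.10 and -0.13. With all arrays these medians were 0.18, 0.06, 0.26, 0.23, 0.50, 0.12 and -0.45 in the same order.

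The counts of the remaining lists are also of I/R against sham in above pieces, where 15.5% of all genes rose and 17.3% fell. The markers of all cardiomyocytes (8 tested) ran from -0.36 to 0.20 on I/R above arrays and from -0.55 to 0.35 on sham above arrays, and 1 fell with I/R. The lowest of these sham values was WT sham 3, high in Myl7, while Tg+ sham 2 was at 0.17. General endothelial markers (8 tested) ran from -0.47 to 0.15 on I/R above arrays and from -0.21 to 0.31 on sham above arrays, and 2 fell. Adipocyte markers (4 tested of 7) ran from -0.04 to 1.09 on I/R above arrays and from -0.65 to -0.14 on sham above arrays, and 1 rose. Nerve and Schwann cell markers (2 tested of 6) ran from 0.15 to 0.56 on I/R above arrays and from -0.23 to 0.09 on sham above arrays, and both rose. Airway and lung markers (3 tested of 6) ran from -0.54 to 0.77 on I/R above arrays and from -0.59 to -0.27 on sham above arrays, and none passed. Skeletal muscle genes (8 tested), which bear on Myl4 and Sln because Sln, and in the embryo Myl4, are also made in skeletal muscle, ran from -0.59 to 0.46 on I/R above arrays and from -0.56 to -0.02 on sham above arrays, with 2 lower. On Tg+ sham 2 they were at -0.50 and on WT sham 3 at -0.02, while Myl4 was high on both. With the weak arrays left out, 2 of the markers of all cardiomyocytes fell, 3 general endothelial markers rose and 2 fell, 2 adipocyte and 2 nerve markers rose, no lung marker passed, and 2 skeletal muscle genes rose and 2 fell.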

How the data were processed

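Deposited intensity values (mean spot signals and background medians, linear scale) and Agilent's deposited log10 ratio were read with Feature Extraction 9.5.3.1, per the file headers. The authors' series table holds log2 ratios, whose correlation with each array's own ratios was at least 0.986. How it was centred is not stated. The labels name Cy5 for heart RNA and Cy3 for the reference on all 24 arrays, although a protocol text for the heart RNA names Cy3. No dyes were swapped, and 50 ng of RNA was amplified.

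Intensities were corrected with normexp (offset 50) and loess-normalized within arrays in limma 3.58.1 (R 4.3.3). Control and outlier-flagged spots had weight 0. A probe was kept (15436 of 41174) where every array of 1 or more groups had its Cy5 spot flagged well above background, and the brightest probe stood for each gene (11436). No spot was saturated. A dim gene's fold is understated. One lmFit and eBayes fit of 8 group means used all 24 arrays (16 residual degrees of freedom), with Benjamini-Hochberg adjustment over all genes and a threshold of 0.05. The fit was tested on simulated data. Figures were drawn with matplotlib.

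Both pieces of a heart carry the same number, and the labels give 2 pieces per heart, which pairs them. Deviations of the pieces from their group means correlated at -0.73 to 0.54 over the 12 hearts, above 0.1 in 8. Across groups the numbers pair no hearts. The 7 slides are also the scans. Whether hearts of a group came from separate litters is not stated.

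The 5 genes and the 14 other gene lists were chosen with earlier results of these data known. Genes named were the 5, the tested wider atrial genes, up to 4 of each other list by Cy5 signal, and the 10 most and 3 least similar genes. Genes that exceeded all below arrays, and dim list genes named as below background, were named after their values were seen. Some genes of these lists are not reported here. Alternatives were the background correction, Agilent's ratio, Cy5 alone, no filter, slide and replicate blocks, fewer arrays, array weights, the series table, mean of probes and left-out arrays.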

Additional observations from a re-analysis of the deposited data

How the results depend on the processing

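The counts of the 5 genes past the threshold stayed within 1.5 times of the reported count in 71 of 108 alternative settings, and no difference that passed under either setting changed direction. Of 1040 alternative values of single genes, 58 lost their call and 55 gained one, and 37 that passed in neither setting changed sign. The cause of the moves was not tested, except where fewer arrays entered by construction. Above minus below in I/R hearts gave 1 gene as reported, 2 with Agilent's ratio and with the series table, 3 with Cy5 alone, 4 with array weights, 3 with array weights estimated gene by gene, and 5 without the weak arrays. It gave 0 with the heart as a replicate block, the slide as a block, no filter or only the arrays compared. The gene-by-gene weights were added after seeing the data, because the planned estimate did not reach its convergence tolerance. I/R minus sham above, both genotypes, gave 5 as reported, 3 with Cy5 alone and 2 with the slide as a block. In Tg+ it gave 2 as reported, 0 with Agilent's ratio, the series table, no filter or the slide block, 1 with Cy5 alone, 4 with only the arrays compared, and 5 with either kind of array weights or without the weak arrays. In WT it gave 1 as reported, 0 with Agilent's ratio, the series table, no filter, only the arrays compared or the slide block, 4 with array weights, 3 with gene-by-gene weights and 5 without the weak arrays. I/R minus sham below gave 1 as reported and 0 with Agilent's ratio, the series table, Cy5 alone, the slide block or without the weak arrays. The interaction gave 0 as reported, 3 with array weights and 2 without the weak arrays, and Tg+ minus WT in sham above gave 0 as reported and 1 with array weights. With the replicate number as a block, I/R minus sham gave 5 genes above and 1 below, as without it. Leaving out each array in turn gave 0 to 3 genes for above minus below in I/R hearts, 4 to 5 for I/R minus sham above, 0 to 5 in Tg+, 0 to 3 in WT and 1 below, and 0 in the other comparisons.

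Counts over all genes moved by over 1.5 times: for above minus below in I/R hearts they were 20 as reported, 0 to 1066 over the settings, and for I/R minus sham above they were 3744 as reported, 1191 with the slide block and 7137 with array weights. In Tg+ they were 1751 as reported, 3705 with only the arrays compared and 5319 with array weights, out of the 11436 genes. In WT they were 1517 as reported, 6833 with array weights and 4194 with gene-by-gene weights. For the interaction they were 0 as reported and 288 with array weights, and for Tg+ minus WT in sham above 4 and 1731. The counts of the 5 genes have to be read beside these. They include Dkk3, which the filter on dim probes favoured as high in Tg+ I/R above. Agilent's ratio moved the median of all genes by -0.13 in I/R minus sham above and -0.24 below. The median r over the 10 gene pairs ran from 0.82 to 0.87 over its settings. Weak signal limits Dkk3 most, which was above background on 7 of 24 arrays, and 3 hearts per group limit every comparison.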

Other observations

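The reference channel of Sln was not level across arrays. Its Cy3 mean signal was 1945 on WT I/R above 3, 2553 on Tg+ I/R above 1 and 3008 on Tg+ sham above 2, the 3 lowest of the 24 arrays, and 3272 to 5212 on the others. The same 3 arrays had the 3 highest Cy5 signals of Sln, at 22302, 8668 and 4164. The Cy3 signal of Myl7 ran from 284.5 to 427.5 over the 24 arrays and that of Myl4 from 824 to 1163, and Tg+ sham above 2 was lowest for Myl7.

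Tbx5, a T-box transcription factor gene of atria and left ventricle, did not pass. In above pieces I/R minus sham was -0.19 ± 0.25 (adjusted p = 0.56 by limma), and above minus below in I/R hearts was 0.48 ± 0.25 (adjusted p = 0.53). Pam, which encodes an enzyme that amidates peptides and is abundant in atrial granules, differed by 1.02 ± 0.33 between above and below pieces of I/R hearts (unadjusted p = 0.0054, adjusted p = 0.24) and by -0.03 ± 0.33 between I/R and sham above pieces. Without the weak arrays these were 1.22 ± 0.08 (adjusted p = 3.3e-07) and 0.72 ± 0.07 (adjusted p = 1.4e-06), and those of Tbx5 were 0.61 ± 0.18 (adjusted p = 0.084) above minus below and 0.36 ± 0.15 (adjusted p = 0.072) I/R minus sham.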
